A study of Caenorhabditis elegans with 12 samples.

Results

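The germline nuclear RNAi mutants hrde-1 and hrde-2 were taken as 1 group of 6 H3K9me3 CUT&Tag libraries and compared with 3 wild-type H3K9me3 libraries, so that 9 of the 12 libraries of the series were used. The question was which genes changed with the loss of either protein. The mutant libraries were 3 from strain USC661, which carries hrde-1(tm1200) on chromosome III, and 3 from strain FD53, which carries hrde-2/enri-3(qe20) on chromosome V. The wild-type libraries came from strain N2. All libraries were made from purified germline nuclei of 1-day-old adult C. elegans grown at 20 °C. Each mutant was represented by 1 strain and 1 allele, so that effects of the allele and of the strain background cannot be told apart, and both mutants were set against the same 3 wild-type libraries. Libraries were assigned by their labels, and nuclear genes alone were compared.

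HRDE-1 is an Argonaute protein of the germline that carries small antisense RNAs into the nucleus and pairs with nascent transcripts, and it is needed for silencing that is passed on to descendants. HRDE-2 is a partner of HRDE-1. H3K9me3, trimethylation of lysine 9 of histone H3, is a mark of silenced chromatin, and in C. elegans it is most abundant on the arms of the autosomes, over repeats and gene families that have expanded. In CUT&Tag a transposase is brought to the mark by an antibody and inserts adapters into the DNA beside it, so that sequenced fragments come from where the mark lies. The authors found that their H3K9me3 antibody also recognised H3K27me3 and H4K20me3, so that part of the signal may come from these modifications.

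Values were fragment counts over exons, given below as counts per 1000000 (CPM) after scaling of each library to the others. Total counts were 6254908 to 8683963 in the mutant libraries and 1470699 to 8719542 in the wild-type libraries, of which replicate 2 was the shallowest. A gene without a count could have had up to 3 counts, or 0.350 to 2.07 CPM in these 9 libraries. Nuclear rRNA genes took 13.2% to 21.1% of counts in the mutant libraries and 16.9% to 24.6% in the wild-type libraries, where replicate 3 had the most. One library of each genotype, labelled IgG, was made without the H3K9me3 antibody and held 13950 to 233980 counts, too few for tests of single genes.

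The targeted genes were examined first. At hrde-1 (chromosome III, 4172337 to 4176159) the hrde-1 libraries had 95.3, 86.3 and 101 CPM and the hrde-2 libraries 117, 113 and 125 CPM, against 81.2, 88.0 and 101 CPM in wild-type (log2 fold change of the pooled mutants 0.23 ± 0.12, SE, edgeR adjusted p 0.482). At hrde-2 (chromosome V, 15005100 to 15006400) the values were 19.1, 23.6 and 21.1 CPM in hrde-1, 25.0, 24.4 and 23.4 CPM in hrde-2 and 24.1, 19.1 and 22.4 CPM in wild-type (0.02 ± 0.15, adjusted p 0.975). Counts over whole genes showed neither mutation and gave no check of the genotype labels.

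In both mutants H3K9me3 counts were lower at a small set of genes, among them a row of F-box genes on chromosome IV. Of 28694 genes tested, 135 were called (0.47%), of which 16 were higher (0.0558% of genes tested) and all others were lower (0.415%) in the pooled mutants (edgeR quasi-likelihood test, adjusted p under 0.05). At an unadjusted p under 0.05, 1790 genes were lower (6.24%) and 1360 were higher (4.74%), and the median log2 fold change of all genes was 0.01. Each mutant shared the sign of the pooled change at each of the lower genes (0.415% of genes tested) and 15 of the 16 higher genes (0.0523%). All 6 mutant libraries lay beyond all 3 wild-type libraries at 102 lower genes (85.7% of them) and 13 of the 16 higher genes, and such separation was seen at 831 genes below wild-type (2.9%) and 770 above (2.68%) among all genes tested. The genes were called from these same libraries, so the shared sign and the separation follow in part from the call.

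The wild-type libraries were then left out one at a time. Leaving out wild-type replicate 1, 69 of the lower genes were called again (0.24% of genes tested). Leaving out replicate 2 they were 65 (0.227%), and 39 (0.136%) when replicate 3 was dropped. The 16 higher genes held less often in number, with 0, 2 (0.00697%) and 4 (0.0139%) called again. Genes were taken as common to both mutants if they were called with all libraries and in each of these 3 fits and had the same sign in each mutant. By this rule 23 genes were lower (0.0802% of genes tested) and 0 were higher. DESeq2 gave 35 and 1, with 22 of the 23 among the 35. The count by this rule depended on the setting, with 14 lower genes at an adjusted p under 0.01, 15 with a replicate block, 46 without the count filter, 55 with 3 genotypes in the fit and 0 with all libraries thinned to the shallowest, and with 16 and 12 higher genes without the filter and with 3 genotypes. The 23 genes were also called when any of the 6 mutant libraries was left out and, in a fit with 3 genotypes, in each mutant alone, where 41 genes (0.143%) were lower and 1 (0.00349%) was higher in both. Counts of all calls moved more, to 70 lower genes without hrde-1 replicate 2, 55 without hrde-1 replicate 3, 77 without hrde-2 replicate 1, 69 without hrde-2 replicate 2, 71 without wild-type replicate 2 and 42 without wild-type replicate 3.

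**Figure D1:**
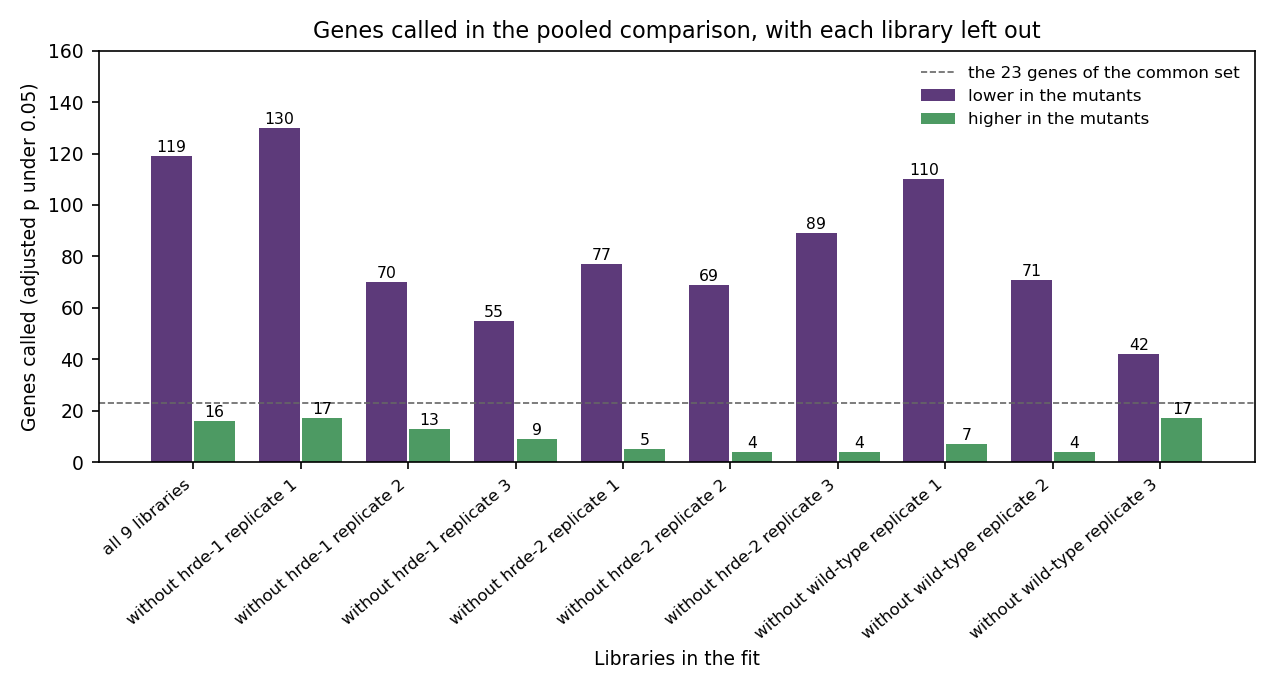
Number of genes called lower (purple) or higher (green) in the pooled mutants than in wild-type, by edgeR with adjusted p under 0.05, with all 9 libraries and with each library left out in turn. Lower calls ran from 42 without wild-type replicate 3 to 130 without hrde-1 replicate 1, and higher calls from 4 to 17. The dashed line marks the 23 genes lower in both mutants, which were called in each fit shown. The rule itself requires this with all libraries and without each wild-type library.

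The log2 fold changes of the 23 genes ran from -1.17 to -0.72 with a median of -0.95, and the mutant libraries lay below all 3 wild-type libraries at each of them. The rule that chose these genes leaves out small changes, so the range and the separation follow in part from it. Of the 23, 16 are annotated as protein coding, 5 as pseudogenes, 1 as a long intergenic non-coding RNA and 1 as another non-coding RNA. Chromosome IV held 12, chromosomes II and V held 4 each, X held 2, III held 1 and chromosome I none. The assay measured many nuclei together, so a fall of counts in fewer nuclei and a smaller fall in all nuclei cannot be told apart. Because counts were not scaled to a spike-in, a change at a gene is a change against the rest of the same library. The number of copies of the 23 genes in the genome of each strain was not measured.

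The largest group of common genes was a row of fbxc genes on chromosome IV (891239 to 913167, plus strand), which code for F-box proteins, a family that brings substrates to ubiquitin ligases and is greatly expanded in C. elegans. All 10 genes of this row of 21929 bases were lower in the mutants. The row alternates 5 short genes, named fbxc-4 or fbxc-5, with 5 longer ones, named fbxc-8 or fbxc-12. Starts of neighbouring short genes were 4152 or 4153 bases apart. Because several genes share a symbol, each is given here with its sequence name.

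The copies are nearly identical, which limits what can be said of each. The short genes have 1128 exon bases in 2 versions that differ at 2 places (99.8% identity), written here from the fbxc-5 version to the fbxc-4 version and counted from the first exon base as A782T and T902A. The stretch that holds both places is shown for 1 gene of each version, from the RefSeq genome (WBcel235, plus strand, chromosome IV), with the differing bases in capitals. The fbxc-5 copies C44C8.4, at IV:892215-892355, and C44C8.1 have the first sequence, and the fbxc-4 copies C44C8.3, at IV:896367-896507, C44C8.2 and F58H7.8 have the second.
C44C8.4: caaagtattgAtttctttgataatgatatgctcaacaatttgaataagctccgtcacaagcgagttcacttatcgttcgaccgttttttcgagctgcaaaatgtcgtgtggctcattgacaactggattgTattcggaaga
C44C8.3: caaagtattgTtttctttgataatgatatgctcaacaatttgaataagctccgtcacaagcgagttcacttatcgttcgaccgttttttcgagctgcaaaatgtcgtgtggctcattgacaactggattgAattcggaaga

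The long genes C44C8.10, C44C8.9 and C44C8.8 have identical exons of 1413 bases, and C44C8.7 (fbxc-12) differs from them at T423G and C1174T (99.9% identity). Both places are shown for C44C8.10, at IV:893253-893293 and IV:894279-894319, and for C44C8.7, at IV:905710-905750 and IV:906737-906777, again with the differing base in capitals. A fragment that does not cover such a base fits several copies and may have been placed at any of them.
C44C8.10 first place: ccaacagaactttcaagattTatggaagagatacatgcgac
C44C8.7 first place: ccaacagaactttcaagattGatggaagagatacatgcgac
C44C8.10 second place: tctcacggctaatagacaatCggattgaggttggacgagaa
C44C8.7 second place: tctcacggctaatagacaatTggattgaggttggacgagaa

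The copy of fbxc-8 named C44C8.8 (901110 to 902891) fell most of the 23 genes. It had 38.5, 39.2 and 34.4 CPM in hrde-1 and 45.2, 52.2 and 52.4 CPM in hrde-2 (mutant median 42.2 CPM), against 87.0, 104 and 105 CPM in wild-type. All 6 mutant libraries were below the wild-type libraries, and the mutant mean was 44.3% of the wild-type mean (log2 fold change -1.17 ± 0.12, SE, edgeR adjusted p 1.38e-06). The copy C44C8.10 (892806 to 894586), of the same exon sequence, had a lowest, median and highest value of 33.9, 46.2 and 59.7 CPM in the mutants, against 97.4, 98.3 and 99.7 CPM in wild-type (-1.08 ± 0.12, adjusted p 2.77e-06).

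The short copies carried fewer counts and changed alike. At fbxc-4 (C44C8.2) the mutants had 17.6, 28.03 and 32.9 CPM as lowest, median and highest value, against 55.4, 58.7 and 52.2 CPM in wild-type (-1.07 ± 0.15, adjusted p 5.05e-05). At fbxc-5 (C44C8.1) they had 19.9, 26.6 and 33.0 CPM, against 54.8, 56.6 and 54.4 CPM in wild-type (-1.06 ± 0.14, adjusted p 2.22e-05). At fbxc-4 (C44C8.3) they had 16.5, 26.3 and 36.7 CPM, against 49.7, 66.2 and 47.1 CPM in wild-type (-1.005 ± 0.17, adjusted p 0.00184). None of these 3 short copies overlapped between the groups. The other 5 genes of the row, fbxc-5 (C44C8.4), fbxc-8 (C44C8.9), fbxc-12 (C44C8.7), fbxc-4 (F58H7.8) and fbxc-8 (F58H7.7), had log2 fold changes of -0.99, -0.98, -0.95, -0.95 and -0.91.

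**Figure D2:**
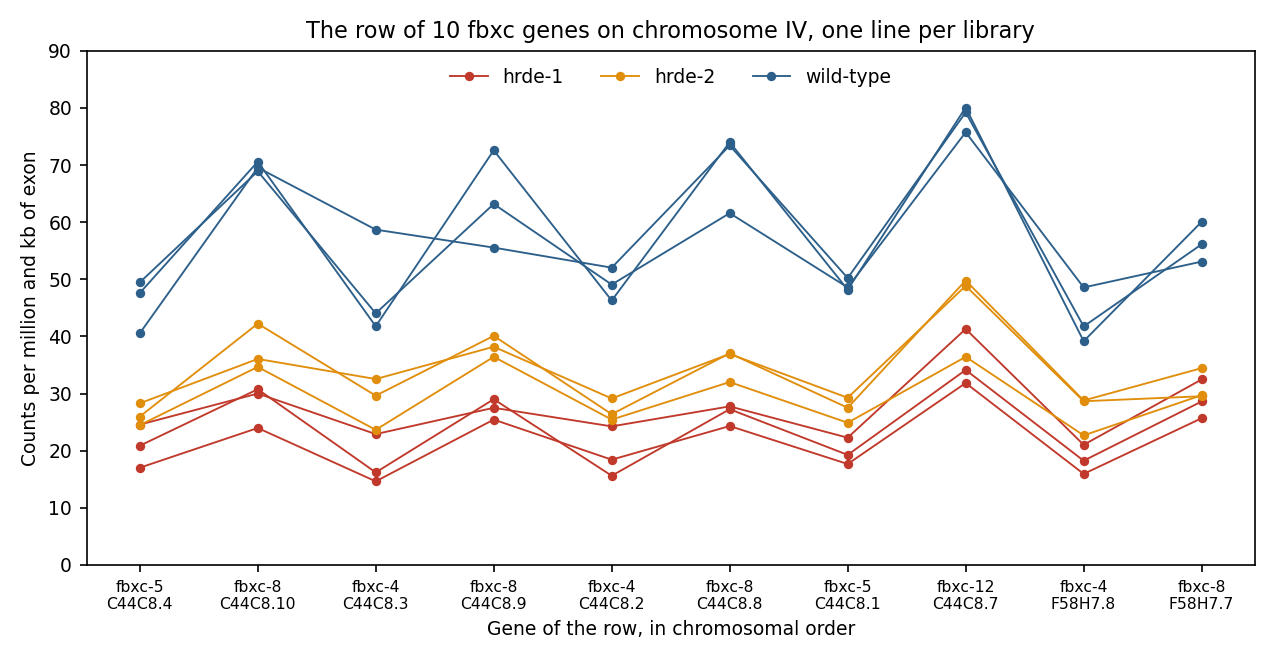
H3K9me3 counts (CPM) per kb of exon (vertical axis) at the 10 genes of the fbxc row in chromosomal order (horizontal axis), with a line for each library of hrde-1, hrde-2 and wild-type. The 6 mutant lines run below the 3 wild-type lines at every gene, and the pattern of higher and lower copies along the row is alike in all libraries.

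Since fragments cannot be assigned to single copies, the row was also summed. In CPM of the nuclear counts, without scaling factors, the sum was 401 ± 80.0 in the mutants (SD, n = 6) and 774 ± 56.3 in wild-type (SD, n = 3). The mutant libraries had 293, 413 and 489 CPM as lowest, median and highest value, against 803, 809 and 709 in wild-type, so that the sums did not overlap. The hrde-1 libraries averaged 339 ± 58.2 and the hrde-2 libraries 462 ± 36.0 (SD, n = 3 each).

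The IgG libraries, 1 for each genotype, had 9 counts on the row in hrde-1, 18 in hrde-2 and 53 in wild-type, which is 257 CPM (95% Wilson interval 135 to 488), 1316 (832 to 2079) and 242 (185 to 316), and intervals cover counting error only. The intervals of hrde-1 and wild-type overlapped, so that a difference between these was not detectable at this depth, and hrde-2 lay above wild-type. Over all 23 common genes the IgG libraries had 656 CPM in hrde-1 (437 to 984), 2631 in hrde-2 (1901 to 3640) and 634 in wild-type (537 to 749), beside 762 to 1078 in the mutant H3K9me3 libraries and 1588 to 1768 in the wild-type H3K9me3 libraries. The hrde-2 IgG library, which held 36 counts on these genes, was thus above the hrde-2 H3K9me3 libraries. Its part in the results was not tested.

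Of the 13 common genes outside the row, linc-14 fell most. It is a long intergenic non-coding RNA gene on the minus strand of chromosome V (17539172 to 17539475). None of its exon sequence is repeated elsewhere in the genome, so its counts do not depend on the placement of repeated fragments, and its exons are shown for that reason from the RefSeq genome (WBcel235, minus strand, V:17539374-17539475 and V:17539172-17539324).
linc-14 exon 1: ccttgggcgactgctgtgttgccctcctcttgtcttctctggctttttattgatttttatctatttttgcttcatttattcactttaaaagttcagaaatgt
linc-14 exon 2: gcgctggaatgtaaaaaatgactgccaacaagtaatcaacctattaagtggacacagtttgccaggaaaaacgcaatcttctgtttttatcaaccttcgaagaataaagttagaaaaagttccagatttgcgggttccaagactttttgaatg
The hrde-1 libraries had 13.7, 12.2 and 9.54 CPM and the hrde-2 libraries 13.1, 8.902 and 16.1 CPM (mutant median 12.7 CPM), against 22.7, 29.3 and 30.4 CPM in wild-type. The groups did not overlap, and the mutant mean was 44.6% of the wild-type mean (-1.16 ± 0.18, adjusted p 0.000482). Counts at this short gene were the lowest of the 23.

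The gene arrd-13 (chromosome II, 13758408 to 13761233) codes for an arrestin domain protein. It had 54.3, 53.5 and 52.8 CPM in hrde-1 and 48.2, 42.2 and 50.3 CPM in hrde-2, against 95.8, 90.1 and 115.4 CPM in wild-type (-1.02 ± 0.11, adjusted p 1.38e-06). The 6 mutant libraries were close together and all below wild-type. The pseudogene Y17D7C.3 (chromosome V, 18720589 to 18723771) had a lowest, median and highest value of 23.4, 32.8 and 35.2 CPM in the mutants, against 56.8, 70.3 and 64.8 CPM in wild-type (-1.01 ± 0.13, adjusted p 1.45e-05). The pseudogene Y73B3A.9 near the left end of X (150363 to 157246) had the highest counts of the 23, with 72.5, 84.4 and 102 CPM in the mutants, against 145, 156 and 175 CPM in wild-type (-0.88 ± 0.11, adjusted p 1.11e-05). At C08F1.10, a protein-coding gene on chromosome II (1785270 to 1786309), the mutants had 35.2, 42.6 and 51.1 CPM, against 63.9, 88.0 and 85.0 CPM in wild-type (-0.87 ± 0.13, adjusted p 0.000181). Neither of these 2 genes overlapped between the groups.

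**Figure D3:**
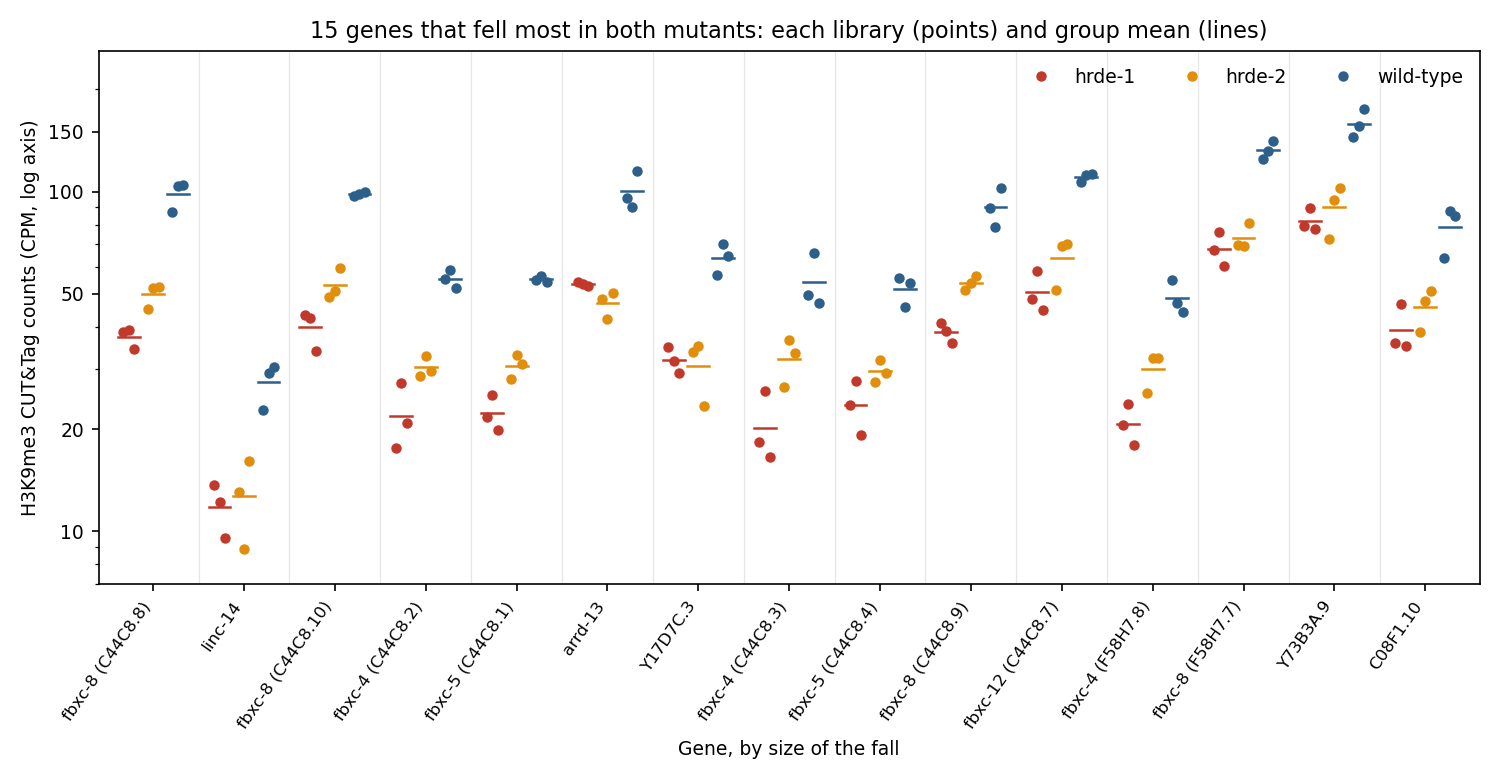
H3K9me3 CUT&Tag counts (CPM, log axis) of the 15 common genes with the largest fall, ordered by its size, in each library of hrde-1, hrde-2 and wild-type (points), with the mean of each genotype (lines). At each gene the 6 mutant points lie below the 3 wild-type points, from linc-14 with 8.902 to 16.1 CPM in the mutants to Y73B3A.9 with 72.5 to 102 CPM.

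The other 8 common genes had log2 fold changes from -0.87 to -0.72. They were the F-box gene fbxb-19, elk-2, which codes for an ETS family transcription factor, the protein-coding genes Y17D7C.6 and C34C12.1, the pseudogenes Y46G5A.6, Y73F8A.33 and K06B9.4, and the non-coding gene ZC132.10. The last lies on the minus strand of chromosome V (4310609 to 4310687) and is almost wholly opposite the tRNA gene ZC132.t1 (4310610 to 4310680, plus strand). Its sequence is shown from the RefSeq genome (WBcel235, minus strand, V:4310609-4310687) with the 71 bases opposite the tRNA gene in capitals, because counting without strand cannot tell the genes apart.
ZC132.10: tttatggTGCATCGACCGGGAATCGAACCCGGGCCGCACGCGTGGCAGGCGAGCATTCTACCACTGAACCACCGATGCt
ZC132.10 had 15.6, 21.4 and 22.6 CPM as lowest, median and highest value in the mutants, against 36.6, 32.1 and 39.4 CPM in wild-type (-0.87 ± 0.15, adjusted p 0.00116). It also lies within the pseudogene ZC132.2, and the lower counts could belong to any of the 3 annotations.

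The threshold fell between genes of similar change. Ranked by the highest adjusted p of the 4 fits, the last common genes were ZC132.10 (0.0287) and fbxb-19 (0.0307), and the first genes outside were the non-coding gene K07C10.6 (0.0568) and the snoRNA gene C53B7.8 (0.0599). K07C10.6 had 27.5 to 50.6 CPM in the mutants, against 57.2, 78.5 and 101 CPM in wild-type (-0.96 ± 0.15), and C53B7.8 had 23.95 to 33.5 CPM in the mutants, against 41.3, 58.01 and 48.1 CPM in wild-type (-0.68 ± 0.13). Neither overlapped between the groups.

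The 2 mutants were also placed side by side at the 23 genes. The median log2 fold change was -0.98 in hrde-1 (from -1.39 to -0.78) and -0.80 in hrde-2 (from -1.12 to -0.57). The fall was larger in hrde-1 at 21 genes and larger in hrde-2 at arrd-13 (-0.93 in hrde-1 and -1.12 in hrde-2) and Y17D7C.3 (-0.98 and -1.03). The 21 include the 10 neighbouring genes of the fbxc row, whose fragments cannot be assigned to single copies, so the genes are not independent. None of the 23 was called different between hrde-2 and hrde-1, and the lowest adjusted p of that difference was 0.0744, at fbxc-4 (C44C8.3). Over all genes, 27 were lower (0.0941%) and 57 higher (0.199%) in hrde-2 than in hrde-1, while 150 were lower (0.523%) and 22 higher (0.0767%) in hrde-1 than in wild-type, and 97 lower (0.338%) and 55 higher (0.192%) in hrde-2 than in wild-type.

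**Figure D4:**
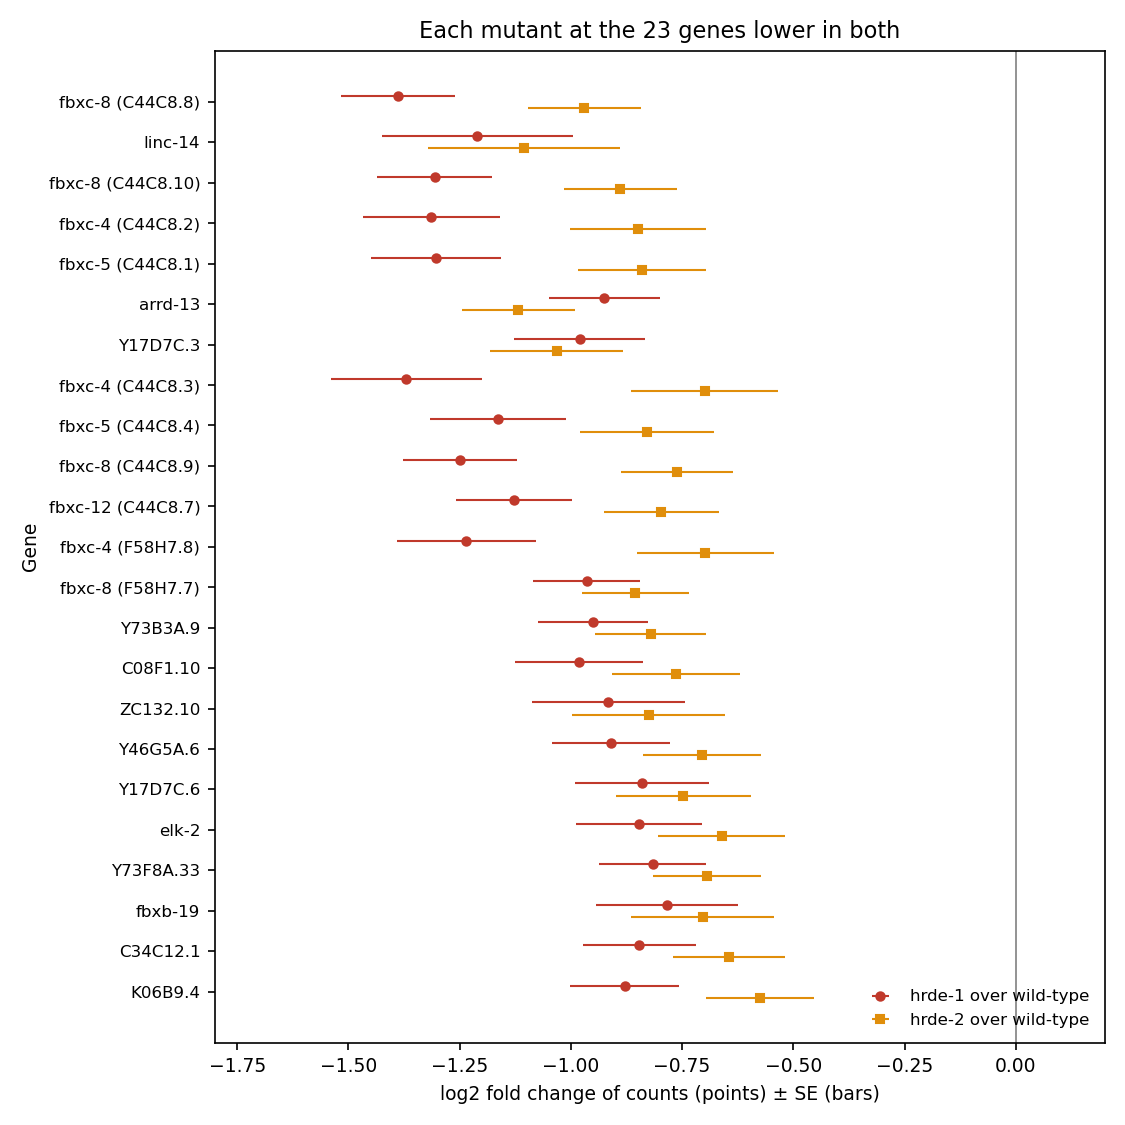
Log2 fold change of counts over wild-type (points, horizontal axis) with its standard error (bars) for hrde-1 (red circles) and hrde-2 (orange squares) at the 23 genes lower in both, from a fit with 3 genotypes. All points lie left of 0, between -1.39 and -0.57, and the hrde-1 point lies further left at 21 genes. The 21 include the 10 neighbouring genes of the fbxc row, which are not independent. Both mutants were set against the same 3 wild-type libraries.

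Calls that lay together were grouped into blocks, with at least 3 calls in 1 direction and at most 2 other tested genes between neighbours. The lower genes formed 5 blocks with 28 calls, and the 16 higher genes formed 0. Besides the fbxc row, a block on the right arm of chromosome V (18701540 to 18725759, Y69H2.9 to Y17D7C.9) held 6 calls among 9 tested genes, of which Y17D7C.3 and Y17D7C.6 were common. Near the left end of X, 5 of 6 tested genes from T08D2.5 to Y73B3B.1 (178242 to 211241) had log2 fold changes from -1.16 to -0.59, and 3 of 4 from Y73B3A.20 to Y73B3A.2 (47766 to 63375) from -1.04 to -0.51. On chromosome III, 4 of 5 genes from the chemoreceptor gene srz-56 to the F-box pseudogene fbxa-68 (2240771 to 2252989) had values from -0.68 to -0.54. Of the common genes, 12 lay in a block and 11 lay in none. A gene in no block can still have a lower call nearby. Y73B3A.9 has Y73B3A.11, and Y46G5A.6 has Y46G5A.7.

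The block on X held T08D2.6 and chkr-1, a gene related to checkpoint kinases. T08D2.6 (179786 to 182169) had 3.79, 4.81 and 4.52 CPM in hrde-1 and 7.33, 9.45 and 5.57 CPM in hrde-2, against 14.9, 17.1 and 9.505 CPM in wild-type (-1.16 ± 0.27, adjusted p 0.0412). All mutant libraries were lower, but by a small margin to wild-type replicate 3, and the gene was called in 3 of the 9 fits without 1 library. At chkr-1 the values were 15.5, 10.4 and 12.96 CPM in hrde-1 and 13.7, 15.1 and 16.4 CPM in hrde-2, against 25.1, 29.3 and 21.8 CPM in wild-type (-0.83 ± 0.17, adjusted p 0.0174, called in 7 of 9 fits).

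The common genes shared features that the rule did not use. Of the 23, 21 (91.3%) lay in the first or last of 3 equal parts of an autosome and the other 2 on X, beside 14690 of all 28694 genes tested (51.2%), 80 of the lower calls (67.2%) and 5 of the 16 higher calls (31.2%). The 21 include the 10 neighbouring genes of the fbxc row, so that 1 locus is counted 10 times. More than 50% of the 31-base words of the exons occurred at more than 1 place in the genome in 13 of the 23 (56.5%), in 10 of 10 genes of the fbxc row and in 3 of the 13 others (23.1%). The same held for 43 of the lower calls (36.1%), 0 of the 16 higher calls and 2053 of 28021 genes with a value (7.33%). Such genes were thus more frequent among the lower calls than among all genes, and the 16 higher calls are too few for a comparison. The 43 include the 10 genes of the fbxc row. The part of repeated sequence in the result was not tested. At 5 of the 13 genes outside the row, linc-14 and Y17D7C.3 among them, no exon word was repeated. Since all 23 were chosen as lower, the fall of these 5 does not bear on the part of repeats. Median exon GC content was 39.3% in the 23 genes and 41.1% in all genes tested, and the share of soft-masked bases had a median of 10.2% and 11.8%. Genes under 150 bases made up 1 of the 23 common genes, 23 of the lower calls (19.3%) and 16.9% of all genes tested. Median counts, on which the calls do depend, were 43.1 CPM per kb of exon in the 23 genes and 22.5 in all genes tested.

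The 16 genes called higher were all protein coding, and none was called in each fit without 1 of the 9 libraries. The most stable were acs-4, an acyl-CoA synthetase gene, and ima-3, which codes for an importin alpha, each called in 7 of 9 such fits. At acs-4 the hrde-1 libraries had 64.03, 67.7 and 60.4 CPM and the hrde-2 libraries 68.5, 68.9 and 71.0 CPM, against 39.5, 34.1 and 52.9 CPM in wild-type (0.61 ± 0.12, adjusted p 0.0128). At ima-3 they had 52.8, 52.5 and 55.4 CPM and 54.9, 60.1 and 73.5 CPM, against 34.5, 42.3 and 37.5 CPM in wild-type (0.64 ± 0.13, adjusted p 0.0128). All 6 mutant libraries were above wild-type at both genes. The other genes with a like change in each mutant included rsa-2 and zyg-9, which act at centrosomes and microtubules, gmps-1, for GMP synthetase, and rde-2, for a protein of the mutator complex that makes small RNAs. For these 4 the log2 fold changes were 0.47, 0.49, 0.51 and 0.71.

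In 5 of the 16, 1 mutant led the other by at least 3 times on the log2 scale or the signs differed, whereas this was so for 0 of the lower genes. The change was in hrde-2 at eif-3.I, for a translation initiation factor subunit (chromosome I, 2485867 to 2489780). It had 23.9, 27.7 and 21.4 CPM in hrde-1 and 168, 182 and 188 CPM in hrde-2, against 20.6, 19.8 and 26.6 CPM in wild-type. Its neighbour ddx-10, for a DEAD-box helicase, had 26.0, 28.8 and 28.2 CPM in hrde-1 and 204, 199 and 219 CPM in hrde-2, against 25.3, 26.6 and 31.1 CPM in wild-type. The hrde-1 values overlapped wild-type at both genes, so that their pooled log2 fold changes of 2.14 ± 0.50 and 2.07 ± 0.50 (adjusted p 0.0420 and 0.0467) describe hrde-2 alone. At orc-2, for a subunit of the origin recognition complex, the log2 fold change was 0.44 in hrde-1 and 1.76 in hrde-2. Conversely, pfk-1.1, for a phosphofructokinase, and the receptor gene frpr-5 were led by hrde-1, with 1.15 and 1.08 in hrde-1, against 0.23 and 0.34 in hrde-2.

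Genes of the machinery of H3K9 methylation and nuclear RNAi were not called in the pooled comparison. Of 20 such genes, among them the nuclear RNAi factors nrde-1 to nrde-4 and the histone methyltransferase genes met-2, set-25 and set-32, 0 were called, with log2 fold changes from -0.31 at hpl-1 to 0.51 at morc-1 (adjusted p 0.0931) and a median of 0.14. At an unadjusted p under 0.05, 3 of the 20 were higher (met-2, set-32 and morc-1) and 0 were lower, and DESeq2 called 0 of the 20, with an adjusted p of 0.0739 at morc-1. In the fit with 3 genotypes morc-1, for a GHKL family ATPase, was higher in hrde-2 (0.73, adjusted p 0.0020) and was not called in hrde-1 (0.28, adjusted p 0.435), with 77.0, 81.1 and 75.1 CPM in hrde-2 and 60.7, 55.8 and 54.5 CPM in hrde-1, against 44.7, 60.1 and 42.3 CPM in wild-type. Its pooled change was called in 2 of 18 alternatives, without the count filter (adjusted p 0.0111) and with 3 genotypes in the fit (adjusted p 0.0236). The other 19 genes were called in neither mutant alone. Among 22 genes of small RNA amplification and germ granules, ego-1, for a germline RNA-dependent RNA polymerase, and rde-2 were called higher, 19 had values above 0, and the median was 0.17. At ego-1 the values were 91.2, 86.9 and 84.5 CPM in hrde-1 and 123, 129 and 118 CPM in hrde-2, against 71.8, 66.9 and 75.1 CPM in wild-type (0.55 ± 0.13, adjusted p 0.0452), and the gene was called in 3 of 9 fits without 1 library. By mutant, 5 of the 22 were called higher in hrde-2 (ego-1, znfx-1, wago-1, wago-4 and deps-1), beside 0.192% of genes tested, and 0 in hrde-1.

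Cell type markers were read as levels of the mark only, since counts of a histone mark do not measure expression, and 0 of the 51 marker genes were called by edgeR or by DESeq2. Medians were 0.22 for germ cell markers (10 of 10 above 0), 0.14 for oocyte (7 of 7), 0.02 for sperm (5 of 8), 0.10 for intestine (6 of 7), 0.08 for body muscle (4 of 6), 0.01 for neuron (4 of 7) and 0.27 for hypodermis markers (6 of 6), of which 1, 2, 1, 1, 0, 0 and 4 genes had an unadjusted p under 0.05. The sum over germ cell markers was 470 to 606 CPM in the mutant libraries and 444 to 501 CPM in the wild-type libraries, and that over hypodermis markers 440 to 565 CPM and 375 to 551 CPM, so that both overlapped. No marker was at 0 in any library. Whether a different makeup of the nuclei had a part in the higher calls was not tested.

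Gene families were compared by their counts and medians beside all genes tested, of which 0.415% were lower and 0.0558% higher, with a median of 0.01. F-box genes had 20 lower and 0 higher calls among 389 tested (5.14%), 294 of them had values below 0, and their median was -0.18. Without the row on chromosome IV there were 10 lower calls among 379 (2.64%), of which fbxb-19 was common, and a median of -0.16, so that the shift of the family did not rest on the row. The related MATH and BTB domain genes, also adaptors of ubiquitin ligases, had 2 lower calls among 114 (math-24 and math-42), 92 values below 0 and a median of -0.25. By edgeR, 0 of 265 C-type lectin genes, 0 of 283 nuclear hormone receptor genes, 0 of 72 histone genes and 0 of 159 collagen genes were called, with 47, 33, 4 and 20 at an unadjusted p under 0.05, and DESeq2 called 2, 4, 0 and 0. Of 1362 chemoreceptor genes, 4 were lower (0.294%), a share near that of all genes. DESeq2, which called 218 genes lower over all, called 29 F-box, 5 MATH and BTB domain and 10 chemoreceptor genes lower. It also called 1 F-box gene higher. With scaling by total counts alone the median was 0.07 for all genes, -0.10 for F-box genes and -0.19 for MATH and BTB domain genes.

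By gene class, 26 of 2044 pseudogenes were lower (1.27%, median -0.09), 5 of 83 snRNA genes (6.02%, median -0.18), 3 of 275 tRNA genes (1.09%, median -0.20, 222 below 0), 18 of 5092 other non-coding genes (0.353%, median -0.02) and 61 of 19647 protein-coding genes (0.310%, median 0.03), beside 0.415% of all genes. DESeq2 called 45, 6, 8, 29 and 122 lower in these classes, in the same order. The snRNA calls were smy-11, smy-8, T11F9.15, F40G12.14 and T27E4.10, with log2 fold changes from -1.27 to -0.58. No snRNA or tRNA gene was among the common genes. Without wild-type replicate 3, smy-11 and T11F9.15 were not called (edgeR adjusted p 0.161 and 0.271). By edgeR and by DESeq2, 0 of 657 piRNA genes, whose products feed into this pathway, and 0 of 20 rRNA genes were called, with 39 and 4 at an unadjusted p under 0.05. With scaling by total counts alone the medians of pseudogenes, snRNA and tRNA genes were -0.02, -0.11 and -0.12.

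Lists taken from the study were described in the same way, beside 0.415% lower and 0.0558% higher among all genes. Some of them rest on other data of these strains. Of 949 tested genes with HRDE-1-bound small RNAs in mut-2, 22 were lower (2.32%) and 2 higher (0.211%), with a median of -0.04, and K06B9.4 and C34C12.1 were common. Of 585 such genes in mut-2; hrde-2, 3 were lower (0.513%, near the share of all genes) and 4 higher (0.684%, with eif-3.I among them), with a median of 0.11. Among 186 genes with higher mRNA in hrde-1, 6 were lower in H3K9me3 (3.23%), and among 1062 with higher mRNA in hrde-2, 11 were lower (1.04%) and 2 higher (0.188%). The 89 genes on both mRNA lists held 5 lower calls (5.62%), F15D4.5, Y46G5A.6, F55A3.7, K06B9.4 and M116.2, whose log2 fold changes ran from -0.80 to -0.58, and 0 higher calls. Genes with lower mRNA in hrde-2 also held 9 lower calls among 375 (2.4%), with arrd-13, Y17D7C.3 and Y73B3A.9 among the common genes. Of these 9, T08D2.6, chkr-1, Y73B3B.5, Y73B3A.20, Y73B3A.18 and Y73B3A.9 lie near the left end of X. The same region is thus counted several times. Of 67 WAGO class genes, targets of the worm-specific Argonautes, with higher mRNA and less HRDE-1-bound RNA in hrde-2, 1 was lower, fbxc-43. No gene of the fbxc row was on any of these lists. The study's lists of genes with HRDE-1-bound small RNAs in wild-type and in hrde-2 were not used here. Whether the row is on those was not examined.

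Finally, the share of nuclear counts outside rRNA genes was compared for 13 groups of genes with exact two-sided permutation tests, whose smallest possible p is 0.0238. Pseudogenes took 7.25% ± 0.116 of counts in the mutants (SD, n = 6) and 7.86% ± 0.493 in wild-type (SD, n = 3). The mutant libraries were at 7.16% to 7.46%, against 7.59%, 7.55% and 8.43% in wild-type, and the groups did not overlap (exact permutation p 0.0238, Benjamini-Hochberg adjusted p 0.31). The outer parts of the autosomes took 56.6% ± 0.741 in the mutants and 58.2% ± 1.23 in wild-type (exact permutation p 0.0476, adjusted p 0.31), and the ranges met, at 55.4% to 57.3% in the mutants and 57.2% to 59.6% in wild-type. Neither passed adjustment. Wild-type replicate 3 set much of both differences. Without it they were -0.319 and -0.962 percentage points, where they had been -0.604 and -1.64 with all libraries. No other share had an adjusted p below these.

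**Figure D5:**
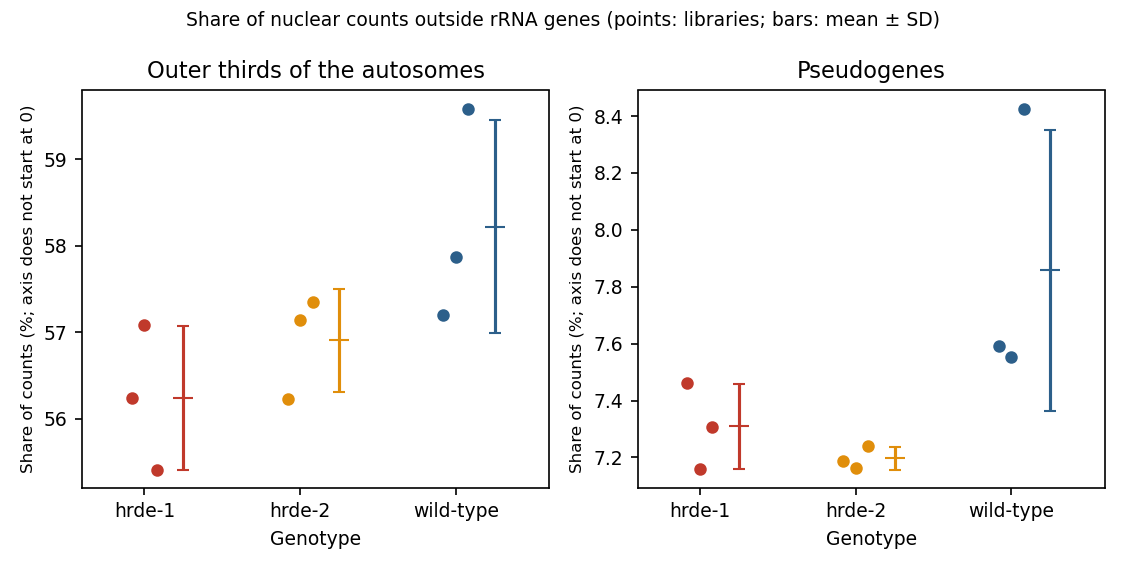
Share of nuclear counts outside rRNA genes (percent, axes do not start at 0) in the outer parts of the autosomes (left) and in pseudogenes (right) for each library of hrde-1, hrde-2 and wild-type (points), with mean and SD (bars). The mutant libraries were at 7.16% to 7.46% in pseudogenes, below all wild-type libraries, and wild-type replicate 3 was highest in both panels.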

How the data were processed

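H3K9me3 CUT&Tag was measured in 3 hrde-1, 3 hrde-2 and 3 wild-type libraries, with 1 IgG library each. The deposited counts are whole fragments per gene. Per the file headers and labels, the authors aligned reads with Bowtie2 2.5.0 and counted fragments over exons of the WS258 canonical gene set with featureCounts 2.0.1, in pairs, at the largest overlap and without strand. Fragments of repeated genes may lie at any copy. Removal of duplicate fragments is not given in the sources used here. Files listed 46760 genes, of which 46724 are nuclear, and Ensembl 115 gave symbols for 46564. Sequences came from the RefSeq genome WBcel235, on which 16226 of 16233 piRNA, tRNA and miRNA genes have the coordinates of the files. No per-sample column was left out.

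Nuclear genes that passed filterByExpr (minimum count 10, 28694 genes) entered the quasi-likelihood F-test of edgeR 4.0.16 under R 4.3.3 (TMM scaling, both mutants as 1 group, no replicate block), with Benjamini-Hochberg adjustment and a threshold of 0.05. Values for each mutant came from a second fit with 3 genotypes. On simulated counts, 192 of 200 genes changed by 1 on the log2 scale were recovered (96%), with 8 unchanged genes called among 28466 tested. Those genes had a mean count of at least 50 and 1 common spread. Count shares were compared by exact permutation over 84 splits. Intervals and floors cover counting error only, as PCR copies are not independent molecules. The 3 libraries of a group are biological replicates per the labels, and no pair agreed within sampling noise (lowest chi-square per degree of freedom 2.57).

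Named were the targeted genes, the 15 common genes that fell most, genes of blocks by their range and ends, the H3K9 and nuclear RNAi list, and 3 calls led by 1 mutant. All other genes were named after their values were seen. The members and lists were chosen with earlier results of these data known. From the mut-2; hrde-2 list, 154 final genes were dropped as they repeat the end of the simr-1 list. Alternatives were other scalings, filters, tools and designs and each library left out. Those for the common genes, other than the stricter threshold, the 9 libraries and each mutant alone, were chosen after seeing the data.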

Additional observations from a re-analysis of the deposited data

Results flagged for a closer look

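In 53 groups of 6 mutant libraries, 1 library stood far from the others in 3, and chance gives about 1 in 20. The share of counts on chromosome IV was 15.7% in hrde-2 replicate 1 and 15.3% to 15.4% in the other mutant libraries. The piRNA share was 0.631% in the same library and 0.472% to 0.518% in the others. The share on chromosome V was 23.8% in hrde-1 replicate 2 and 22.9% to 23.2% in the others.

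Of the genes called in the pooled mutants, 7 differed between the mutants in the test of hrde-2 against hrde-1. The log2 difference was 2.88 at eif-3.I (edgeR adjusted p 5.1e-20), 2.90 at its neighbour ddx-10 (adjusted p 4.64e-21) and 1.32 at orc-2 (adjusted p 1.02e-06), each higher in 3 of 3 hrde-2 libraries than in all hrde-1 libraries. The same held with smaller differences at ego-1 (0.49, adjusted p 0.0259) and F55A3.7 (0.56, adjusted p 0.0362). At pfk-1.1 (-0.92, adjusted p 1.88e-06) and frpr-5 (-0.74, adjusted p 0.0022) 3 of 3 hrde-2 libraries were lower than all hrde-1 libraries.

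Mitochondrial genes, which were left out of the comparison, took 2.11% ± 0.789 of counts in the mutant libraries (SD, n = 6) and 1.15% to 1.80% in the wild-type libraries. The mutants differed, with 2.39% to 3.24% in hrde-1 and 1.11% to 1.79% in hrde-2, so that only hrde-1 lay above wild-type. On the 23 common genes the hrde-2 IgG library had 2631 counts per 1000000 nuclear counts, against 634 in the wild-type IgG library, with 656 in the hrde-1 IgG library.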

How the results depend on the processing

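Of the 23 common genes, 23 were called in the pooled comparison under 17 of 18 alternatives, with adjusted p up to 0.0398. The 18 include the fits without each wild-type library, in which the rule requires a call. All 18 used the same libraries that chose the genes, so they are not independent support. With all libraries thinned to the shallowest, 0 were called, 23 were still below wild-type and 20 had an unadjusted p under 0.05. By the full rule the count of common lower genes was 14 at an adjusted p under 0.01, 46 without the count filter, 0 after thinning, 55 with 3 genotypes in the fit and 35 with DESeq2, and of common higher genes 1 with total counts, 16 without the filter, 12 with 3 genotypes and 1 with DESeq2. All lower calls numbered 42 with total counts, 254 without the filter, 0 after thinning (466 unadjusted), 214 with 3 genotypes and 218 with DESeq2. Higher calls numbered 67 without the filter, 5 with mitochondrial genes kept, 0 after thinning (565 unadjusted), 38 with 3 genotypes and 29 with DESeq2. With 1 library left out, lower calls ran from 42 to 130 and higher calls from 4 to 17. The calls of eif-3.I, ddx-10 and orc-2 were lost in 10 of 18 alternatives. Causes were not tested beyond what each alternative changes. Wild-type replicate 2 was the shallowest of the 9 libraries tested.

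Whether replicate numbers pair the samples was not settled. Deviations of same-numbered libraries correlated at -0.0496 to 0.126, over 0.1 in 2 of 9 pairs, and 6 of 9 libraries correlated best with their own number. The 2 pairs were hrde-2 and wild-type replicates 1 (0.106) and replicates 3 (0.126). With these numbers crossed, hrde-2 and wild-type correlated at -0.146 and -0.109. With a replicate block there were 105 lower and 10 higher calls and 15 common lower genes.

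Some values near 0 changed sign. After thinning, the log2 fold change was -0.54 at hrde-2, -0.29 at lin-61, 0.19 at arle-14 and -0.65 at enri-2. With total counts it was 0.027 at nrde-3 and 0.070 at emb-4, which was also at 0.0074 without the filter, 0.00019 with mitochondrial genes kept and 0.0044 with the block, as nrde-1 was at -0.0029. With 1 library left out, ranges were -0.029 to 0.096 at hrde-2, -0.063 to 0.058 at nrde-1, -0.068 to 0.0040 at nrde-3, -0.045 to 0.41 at lin-65, -0.28 to 0.021 at arle-14, -0.018 to 0.22 at cec-3 and -0.097 to 0.076 at emb-4. None of these was called. Differences in count share, in percentage points, turned to 0.386 on X with rRNA genes kept and to -0.0127 on II without the 10 genes of most counts. Without 1 library they ran from -0.420 to 0.154 on I, -0.0042 to 0.0506 on II, -0.0353 to 0.215 on III, -0.113 to 0.155 on IV, -0.0075 to 0.237 on V, -0.241 to 0.155 on X and -0.110 to 0.0029 for piRNA genes.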
